A study of Mus musculus with 6 samples.

Results

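Genes of purine, pyrimidine and deoxynucleotide synthesis were followed in natural killer (NK) cells of the mouse, lymphocytes of innate immunity with killing and cytokine functions. The set was a fixed list of 36 gene symbols, looked up among the probe sets that the platform annotation maps to exactly 1 symbol, with the mean taken where a gene had several. Of the 36, 35 were measured, out of 19943 genes tested, and the remaining gene, Impdh2, had no such probe set and was not analysed here. The 6 Affymetrix arrays held IL-18 generated cells (3 preparations) and unstimulated cells (3 preparations), which the submitters call independent. IL-18 generated cells were NK1.1-isolated cells kept overnight with IL-2 (300 IU) and IL-18 (25 ng/ml) and then sorted as c-kit positive and CD11b negative. Unstimulated cells were sorted as c-kit negative and CD11b positive. Both sorts took live cells that carried NK1.1 and lacked CD3. The sources used here do not say whether the unstimulated cells were cultured or given IL-2, and they give no strain, age or sex of the mice. IL-18, IL-2 with culture, and the sort gate therefore cannot be told apart in any difference below, and p-values measure only the spread between these 6 arrays.

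Cells make nucleotides along parallel routes. De novo synthesis builds the purine ring stepwise on phosphoribosyl pyrophosphate (PRPP) up to inosine monophosphate (IMP), the branch point to AMP and GMP, and builds the pyrimidine ring up to UMP and then CTP. Salvage recycles free bases and nucleosides by attaching a phosphoribosyl group or a phosphate to them. Ribonucleotide reductase and thymidylate synthase turn ribonucleotides into the building blocks of DNA, and nucleotide kinases raise mono- and diphosphates to triphosphates. Resting lymphocytes are known to rely largely on salvage, and dividing lymphocytes to depend on de novo synthesis.

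In the IL-18 generated cells most genes of the de novo routes were higher, while the salvage genes divided. Every value is on a log2 scale with the median of the 6 arrays set to 0 for each probe set, so it shows differences between arrays and no expression level, and a gene near 0 in all arrays may be undetected. A gene was called higher or lower at a limma p-value, adjusted by Benjamini-Hochberg over all genes, below 0.05. By that rule 24 of the 35 measured members (68.6%) were higher, where 19.7% of all genes tested were higher, and 3 were lower, where 16.7% of all genes were lower. The 8 others did not pass. The median log2 change of the members, IL-18 generated minus unstimulated cells, was 0.60, beside -0.06 over all genes tested, and 10 members were higher by at least 2-fold, where 3.62% of all genes were. A decrease of at least 2-fold was seen in 1 member and in 3.24% of all genes. The arrays of the groups did not overlap for 25 members that were higher and 3 that were lower, beside 22.9% and 25.7% of all genes.

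**Figure D1:**
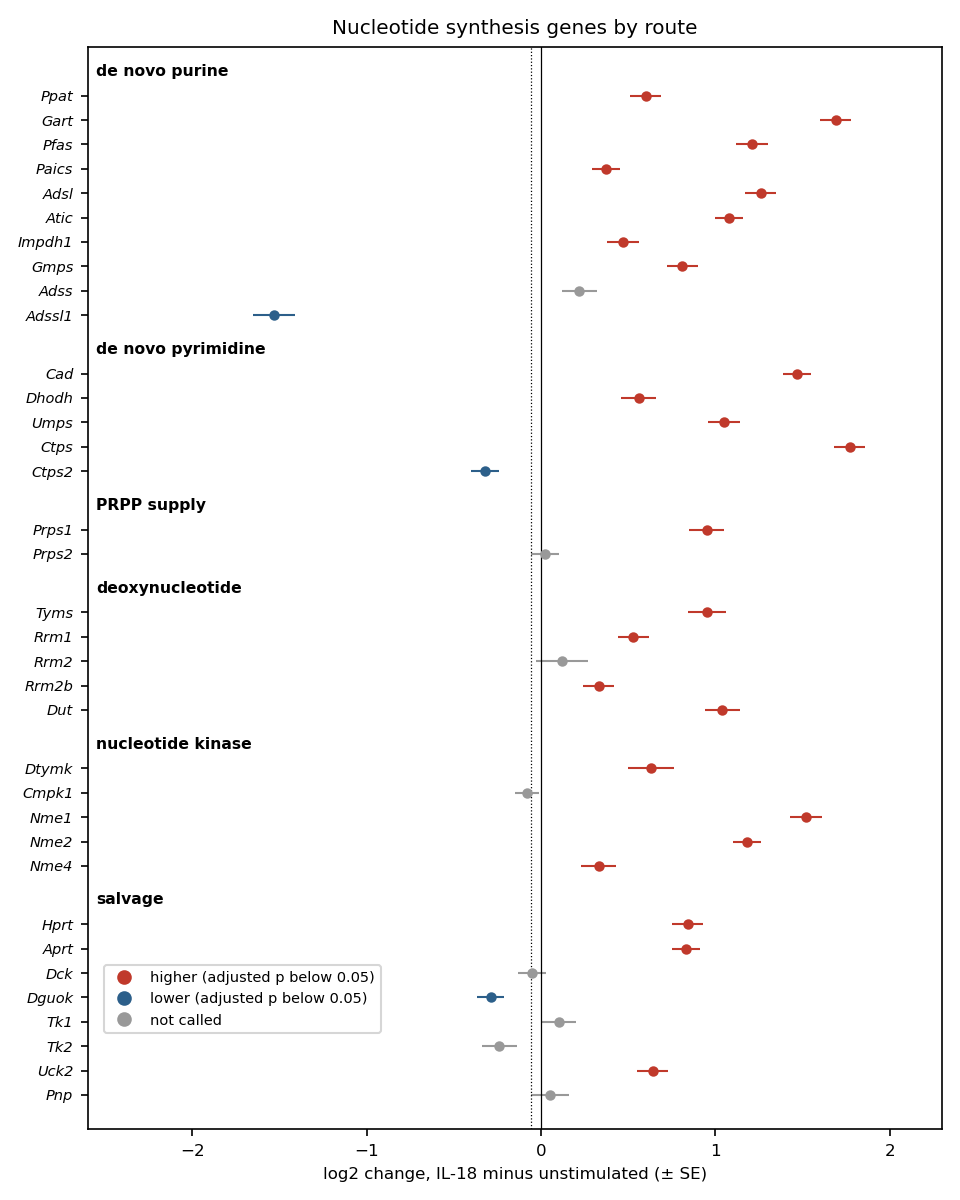
Log2 change, IL-18 generated minus unstimulated cells, of the 35 measured genes (x axis, points with limma standard errors, n = 3 arrays per group), grouped by route and in pathway order (y axis). Red genes were called higher, blue lower and grey not called, the solid line marks 0 and the dotted line the median of all genes tested, -0.06. De novo genes other than Adssl1 and Ctps2 lie right of 0, and the deoxynucleoside kinases Dck, Dguok, Tk1 and Tk2 lie near or left of it.

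Promoter windows of 4 purine and nucleotide kinase genes that were higher are shown because they hold the motifs searched for among the members, and because Ppat and Paics share a locus. Each window runs from 250 bases before to 50 bases after the RefSeq start site on GRCm38.p6 and is printed 5′ to 3′ on the strand of the gene. Capitals mark the E-box CACGTG, the site that MYC and MAX bind, which reads the same on both strands. They also mark short words of the E2F site, searched on both strands, namely TTCCCGC together with its variant TTCGCGC, its variant TTGCCGC and finally its variant TTGGCGC. No E-box overlaps an E2F word in these windows. Ppat lies at chr5:76951529-76951828 on the minus strand, Paics at chr5:76951052-76951351 on the plus strand, Atic at chr1:71556906-71557205 on the plus strand and the upstream window of Nme1 at chr11:93968223-93968522 on the minus strand.
Ppat: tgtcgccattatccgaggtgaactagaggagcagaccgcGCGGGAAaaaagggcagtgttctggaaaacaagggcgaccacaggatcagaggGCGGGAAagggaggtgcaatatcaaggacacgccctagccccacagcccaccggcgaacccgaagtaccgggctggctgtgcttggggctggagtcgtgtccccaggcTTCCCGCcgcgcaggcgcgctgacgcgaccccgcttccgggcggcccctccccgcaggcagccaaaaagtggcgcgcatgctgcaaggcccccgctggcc
Paics: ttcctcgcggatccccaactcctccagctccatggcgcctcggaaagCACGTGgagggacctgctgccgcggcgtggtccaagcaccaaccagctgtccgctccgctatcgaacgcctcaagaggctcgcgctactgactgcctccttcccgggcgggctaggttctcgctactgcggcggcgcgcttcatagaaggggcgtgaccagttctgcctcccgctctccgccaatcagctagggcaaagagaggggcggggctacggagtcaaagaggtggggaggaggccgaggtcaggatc
Atic: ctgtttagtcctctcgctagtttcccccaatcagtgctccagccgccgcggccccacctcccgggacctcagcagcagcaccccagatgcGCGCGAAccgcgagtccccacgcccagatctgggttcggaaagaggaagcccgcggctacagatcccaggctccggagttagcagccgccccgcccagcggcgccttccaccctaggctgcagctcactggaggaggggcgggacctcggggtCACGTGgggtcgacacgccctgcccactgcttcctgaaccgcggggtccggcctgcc
Nme1: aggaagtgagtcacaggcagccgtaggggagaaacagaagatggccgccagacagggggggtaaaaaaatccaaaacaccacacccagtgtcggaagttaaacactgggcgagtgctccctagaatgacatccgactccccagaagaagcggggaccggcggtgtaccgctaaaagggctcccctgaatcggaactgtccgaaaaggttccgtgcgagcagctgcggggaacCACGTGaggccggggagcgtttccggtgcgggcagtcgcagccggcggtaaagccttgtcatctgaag

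The start sites of Ppat and Paics are annotated 276 bases apart on opposite strands and face each other, so that the first bases of both genes overlap. Counting the first transcribed base as 1 and the base before it as -1, the E-box began at -7 in Atic, at -203 in Paics and at -18 in the upstream window of Nme1. Of 33 members with a promoter in the table, 6 held the E-box (18.2%), where 9.5% of the 15617 genes tested with a promoter there did. These were Atic, Paics, Nme1, Tyms and Dtymk, all called higher, and Impdh2, which was not measured. Of the 21 members called higher with a promoter there, 5 held the E-box (23.8%), and of 11 lower or not called, 0 did. Among the largest increases Nme1 held it, while Ctps, Gart and Cad did not. A link between the E-box and the changes was not tested, and its share among all genes called higher is not given here. An E2F word stood in 11 of the 33 (33.3%), beside 14.7% of the genes tested. It stood in 7 of the 21 members called higher (33.3%) and in 3 of the 11 that were lower or not called (27.3%). A match is a description of the sequence and not a binding site. Myc, which encodes the E-box factor MYC, had 0.70 to 0.99 in the IL-18 generated cells and -1.14 to -0.70 in the unstimulated cells, a log2 change of 1.77 ± 0.12 (SE, n = 3 per group, limma adjusted p 1.37e-06). Mycn changed by 0.27 ± 0.08 (limma adjusted p 0.0232), and Max, the partner of MYC, by -0.06 ± 0.09, which did not pass.

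All 6 measured genes of the steps that build the purine ring up to IMP were higher, where 19.7% of all genes tested were. Their median log2 change was 1.14. Gart, a single protein that carries out several of these steps, moved most. It had 0.78, 0.76 and 0.85 in the IL-18 generated cells and -1.04, -0.76 and -0.87 in the unstimulated cells, so the groups lay far apart, and its log2 change was 1.69 ± 0.09 (SE, n = 3 per group here and in later changes), which is 3.23-fold (limma adjusted p 2.75e-07). Pfas, the amidotransferase that follows, had 0.53, 0.52 and 0.59 in IL-18 generated cells against -0.66, -0.52 and -0.81 in unstimulated cells, a change of 1.21 ± 0.09 (limma adjusted p 2.14e-06). Adsl, adenylosuccinate lyase, acts both before IMP and on the branch to AMP. It had 0.55, 0.63 and 0.69 in the IL-18 generated cells and -0.56, -0.55 and -0.80 in the unstimulated cells, a change of 1.26 ± 0.09 (limma adjusted p 2.01e-06). Atic, which closes the ring, had 0.51, 0.47 and 0.62 in IL-18 generated cells against -0.56, -0.47 and -0.59 in unstimulated cells, and changed by 1.08 ± 0.08 (limma adjusted p 2.28e-06).

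The remaining pair of the ring steps, encoded at the shared locus printed above, changed less. Ppat encodes the enzyme of the first committed step and had 0.21, 0.25 and 0.33 in the IL-18 generated cells and -0.51, -0.21 and -0.29 in the unstimulated cells. Its change was 0.60 ± 0.09 (limma adjusted p 0.000474). Paics, a bifunctional enzyme of the middle steps, had 0.13, 0.15 and 0.16 in IL-18 generated cells against -0.35, -0.13 and -0.19 in unstimulated cells, a change of 0.37 ± 0.08 (limma adjusted p 0.00389). The groups did not overlap for either gene. Whether these 2 changes differ from those of the other ring genes was not tested.

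On the branch from IMP to GMP both measured genes were higher, beside 19.7% of all genes tested. There, Gmps, GMP synthetase, was higher by 0.81 ± 0.09 (limma adjusted p 4.75e-05), with 0.31 to 0.36 in the IL-18 generated cells and -0.62 to -0.31 in the unstimulated cells. Impdh1, one of the IMP dehydrogenases, was higher by 0.47 ± 0.09 (limma adjusted p 0.00198). On the branch from IMP to AMP, Adsl is described above. Adss, the broadly expressed adenylosuccinate synthetase, had 0.08, 0.04 and 0.03 in the IL-18 generated cells and -0.38, -0.03 and -0.11 in the unstimulated cells. Its groups did not overlap, but the change of 0.22 ± 0.10 did not pass (limma adjusted p 0.0991). It passed without unstimulated replicate 2 (limma adjusted p 0.0334) and with array weights (0.0456), and its adjusted p over 13 alternatives without a fold threshold ran from 0.0334 to 0.312. Adssl1, known as the muscle form of the same enzyme, fell, with -0.91, -0.56 and -0.91 in IL-18 generated cells against 0.56, 0.78 and 0.86 in unstimulated cells. Its log2 change was -1.53 ± 0.12 (limma adjusted p 3.29e-06), or 2.88-fold lower.

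Of the 5 pyrimidine genes of the de novo route, 4 were higher and 1 was lower, beside 19.7% and 16.7% of all genes tested. Cad, which encodes the first activities of the route in a single protein, had 0.65, 0.65 and 0.68 in the IL-18 generated cells and -0.65, -0.89 and -0.88 in the unstimulated cells, a change of 1.47 ± 0.08 or 2.76-fold (limma adjusted p 5.26e-07). The IL-18 arrays lay within 0.03 of each other for this gene. Dhodh, the mitochondrial dihydroorotate dehydrogenase, changed less, with 0.16, 0.18 and 0.24 in IL-18 generated cells against -0.51, -0.16 and -0.44 in unstimulated cells and a change of 0.56 ± 0.10 (limma adjusted p 0.00103). Umps, UMP synthase, had 0.44, 0.45 and 0.51 in the IL-18 generated cells and -0.73, -0.44 and -0.57 in the unstimulated cells, a change of 1.05 ± 0.09 (limma adjusted p 5.99e-06). Ctps, CTP synthase 1, had the highest increase of all 35 members. Its values were 0.79, 0.96 and 0.92 in the IL-18 generated cells and -0.79, -0.80 and -1.04 in the unstimulated cells, a change of 1.77 ± 0.09 or 3.40-fold (limma adjusted p 2.90e-07). Ctps2, the second CTP synthase, was lower, with -0.14, -0.14 and -0.10 in IL-18 generated cells against 0.10, 0.26 and 0.22 in unstimulated cells and a change of -0.32 ± 0.08 (limma adjusted p 0.00687).

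PRPP is the ribose donor of the purine and pyrimidine routes and of base salvage. Prps1, a PRPP synthetase, had 0.66, 0.34 and 0.50 in the IL-18 generated cells and -0.56, -0.34 and -0.44 in the unstimulated cells, a change of 0.95 ± 0.10 (limma adjusted p 3.07e-05). Prps2, the second PRPP synthetase, lay between -0.05 and 0.13 in the IL-18 generated cells and between -0.09 and 0.05 in the unstimulated cells. These values overlapped, and the change of 0.02 ± 0.08 did not pass (limma adjusted p 0.844).

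The salvage genes called higher act on bases or ribonucleosides, and none of the deoxynucleoside kinases was among them. Hprt, which salvages hypoxanthine and guanine, had 0.35, 0.43 and 0.40 in the IL-18 generated cells and -0.63, -0.36 and -0.35 in the unstimulated cells, a change of 0.84 ± 0.09 (limma adjusted p 3.81e-05). Aprt, which salvages adenine, had 0.35, 0.48 and 0.47 in IL-18 generated cells against -0.35, -0.37 and -0.47 in unstimulated cells, a change of 0.83 ± 0.08 (limma adjusted p 1.28e-05). Uck2 encodes a uridine-cytidine kinase and was higher by 0.64 ± 0.09 (limma adjusted p 0.000191), and its probe sets, tested apart, changed by 0.54 and 0.74. Of the 4 deoxynucleoside kinases 0 were higher by limma's test, where 19.7% of all genes tested were, and 0 had an unadjusted p below 0.05 in that direction.

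Dguok, the mitochondrial deoxyguanosine kinase, was lower, with -0.10, -0.25 and -0.12 in the IL-18 generated cells and 0.10, 0.11 and 0.20 in the unstimulated cells. Its change of -0.29 ± 0.08 passed (limma adjusted p 0.0136), but did not pass without IL-18 replicate 2 (0.0708) or without unstimulated replicate 3 (0.0507), within a range of 0.00801 to 0.0708 over 13 alternatives. Tk2, the mitochondrial thymidine kinase, had -0.03, -0.16 and 0.02 in IL-18 generated cells against -0.02, 0.34 and 0.21 in unstimulated cells, and its change of -0.24 ± 0.10 did not pass (limma adjusted p 0.0966). It passed without unstimulated replicate 1 (-0.33, limma adjusted p 0.0229), within a range of 0.0229 to 0.274. The cytosolic kinases overlapped between groups. Dck, deoxycytidine kinase, changed by -0.05 ± 0.08 and Tk1, cytosolic thymidine kinase, by 0.10 ± 0.10, with limma adjusted p of 0.672 and 0.46. Pnp, purine nucleoside phosphorylase, which splits nucleosides and so serves breakdown as well as salvage, overlapped too, with a change of 0.05 ± 0.11 (limma adjusted p 0.744).

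Set side by side, 12 of 15 measured de novo genes were higher, 2 were lower and 1 did neither, and their median change was 0.81. Of 8 salvage genes, 3 were higher, 1 was lower and 4 did neither, and their median was 0.07. Among these 8, 0 reached a 2-fold increase, where 7 de novo genes did. Within salvage the median was 0.83 for Hprt and Aprt and -0.14 for the 4 deoxynucleoside kinases, with Uck2 at 0.64 and Pnp at 0.05. The median over all genes was -0.06. Of all genes, 19.7% were higher, beside 80% of the de novo and 37.5% of the salvage genes. Another 16.7% of all genes were lower, and 3.62% were higher by at least 2-fold. The mean of the de novo genes was 0.28, 0.32 and 0.35 in the IL-18 arrays and -0.47, -0.29 and -0.43 in the unstimulated arrays, while that of the salvage genes was 0.09, 0.12 and 0.18 in the IL-18 arrays against -0.15, -0.06 and -0.10 in the unstimulated arrays. The groups were separated in both routes, more widely in the de novo one. The medians depended on which genes were counted. Without Adss and Adssl1, which also serve the purine nucleotide cycle, the de novo median was 1.05. Without Adsl as well, the third gene of that cycle among them, it was 0.93, and with Adk, Uck1, Uckl1 and Mtap added the salvage median was 0.22. Of those added, Mtap was higher by 1.04 ± 0.09, or 2.06-fold (limma adjusted p 5.39e-06). Adk was higher by 0.81 and Uck1 by 0.34, while Uckl1, at -0.09, did not pass. No test of the difference between routes was made, since the genes were chosen with results known.

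**Figure D2:**
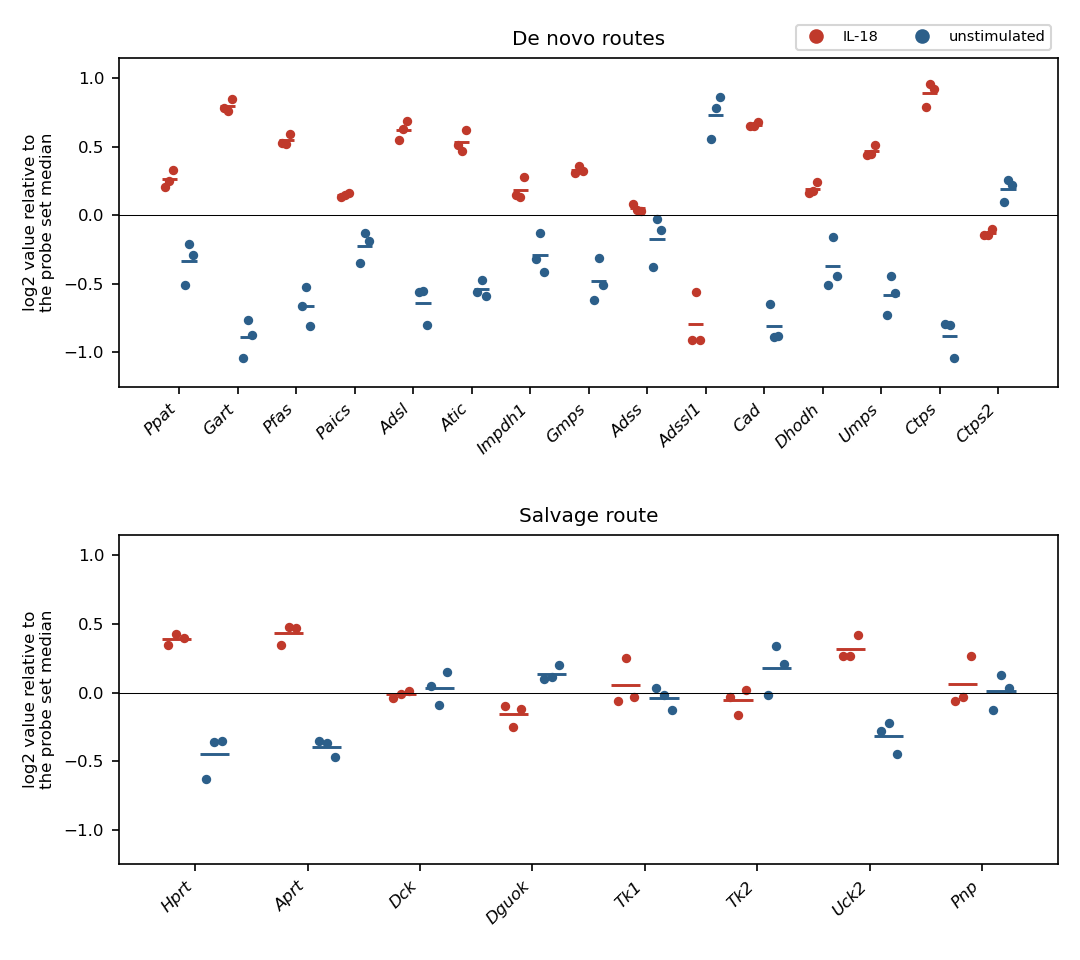
Log2 value relative to the probe set median (y axis) of each de novo gene (upper panel) and each salvage gene (lower panel) in every array. Points are single arrays, IL-18 generated in red and unstimulated in blue, and short lines are means of 3 arrays. No de novo gene overlaps between the groups, whereas 4 of the 8 salvage genes do. Of all genes tested, 48.6% did not overlap.

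Among the genes of deoxynucleotide formation, 4 of 5 were higher and none was lower, where 19.7% of all genes tested were higher and 16.7% lower. The exception was Rrm2. Ribonucleotide reductase pairs the large subunit Rrm1 with a small subunit, Rrm2 in dividing cells or the p53-inducible Rrm2b. Rrm1 had 0.15, 0.44 and 0.27 in the IL-18 generated cells and -0.32, -0.15 and -0.28 in the unstimulated cells, a change of 0.53 ± 0.09 (limma adjusted p 0.00105). Rrm2b had 0.12, 0.12 and 0.11 in IL-18 generated cells against -0.39, -0.11 and -0.16 in unstimulated cells, a change of 0.33 ± 0.09 (limma adjusted p 0.0124). Rrm2 had -0.26, 0.49 and 0.08 in the IL-18 generated cells, on either side of the unstimulated values of 0.01, -0.04 and -0.01. Its change of 0.12 ± 0.15 did not pass (limma adjusted p 0.579). The change was -0.08 without IL-18 replicate 2 and 0.30 without IL-18 replicate 1 (limma adjusted p 0.0915), and it passed in neither case.

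Tyms, thymidylate synthase, which makes dTMP from dUMP, had 0.35, 0.81 and 0.53 in the IL-18 generated cells and -0.35, -0.46 and -0.36 in the unstimulated cells, a change of 0.95 ± 0.11 (limma adjusted p 6.35e-05). Dut, the dUTPase that supplies dUMP and keeps uracil out of DNA, had 0.36, 0.63 and 0.54 in IL-18 generated cells against -0.36, -0.68 and -0.54 in unstimulated cells, a change of 1.04 ± 0.10 (limma adjusted p 1.92e-05). Rrm2 and Tyms had the widest spread over IL-18 arrays among the 35 members, with SDs of 0.375 and 0.232, where the median member had 0.071. In Rrm2, Tyms, Rrm1, Dut and Tk1, IL-18 replicate 2 was the highest array. Replicate 1 was the lowest IL-18 array in each of these 5, which were picked after their values were seen. Over all 35 members, IL-18 replicate 2 was the highest IL-18 array in 14 and replicate 3 in 16. Dtymk, next in spread after Tyms (SD 0.222), was highest in IL-18 replicate 3 (0.58). Tk1 averages 2 probe sets, and in 1 of them IL-18 replicate 3 was lowest (-0.13, beside -0.004 in replicate 1). The mean of 19 mitosis genes showed the order of the 5 picked genes over IL-18 arrays. It was -0.68 in replicate 1, -0.06 in replicate 2 and -0.40 in replicate 3. The unstimulated arrays had 0.27, 0.10 and 0.20. The mean of 31 replication genes was 0.16, 0.34 and 0.34 in the IL-18 arrays, against -0.23, -0.18 and -0.30 in the unstimulated arrays. The part of cell cycle position in these changes was not tested.

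**Figure D3:**
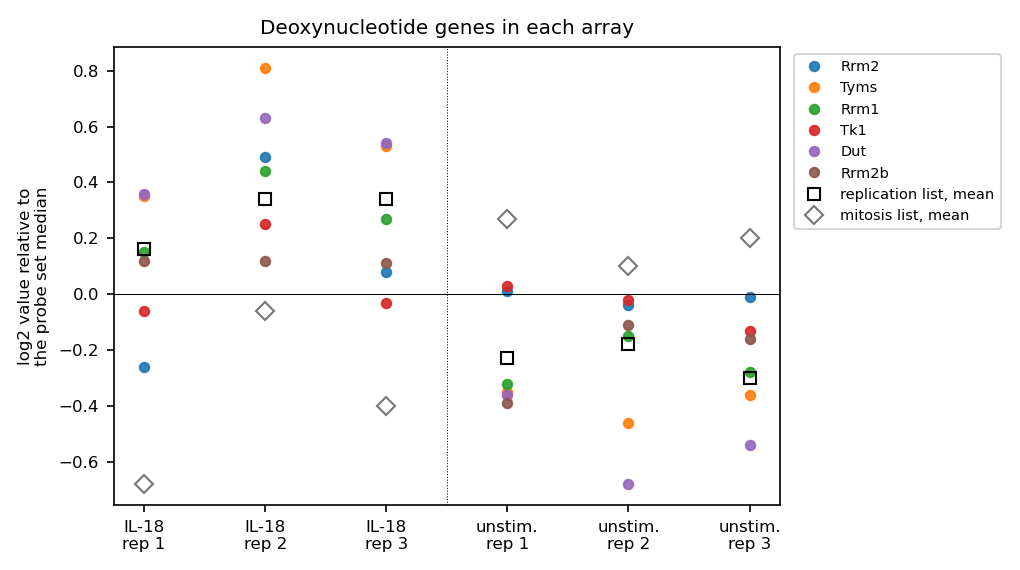
Log2 value relative to the probe set median (y axis) of 6 genes of deoxynucleotide formation and thymidine salvage in each of the 6 arrays (x axis, IL-18 generated left of the dotted line, unstimulated right of it). Filled points are genes, open squares the mean of 31 replication genes and open diamonds the mean of 19 mitosis genes. Rrm2 runs from -0.26 to 0.49 among the IL-18 arrays and from -0.04 to 0.01 among the unstimulated ones.

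Of 5 nucleotide kinases, 4 were higher, where 19.7% of all genes tested were. Nme1 and Nme2 encode the main cytosolic nucleoside diphosphate kinases, which make triphosphates. Nme1 had 0.72, 0.74 and 0.69 in the IL-18 generated cells and -0.69, -0.72 and -0.99 in the unstimulated cells, a change of 1.52 ± 0.09 or 2.86-fold (limma adjusted p 6.84e-07). Nme2 had 0.62, 0.49 and 0.55 in IL-18 generated cells against -0.49, -0.68 and -0.71 in unstimulated cells, a change of 1.18 ± 0.08 (limma adjusted p 2.06e-06). They are close neighbours on chromosome 11 with similar sequences, so probes may read both and their separate values are uncertain. Nme4, the mitochondrial form, had 0.06, 0.29 and 0.06 in the IL-18 generated cells and -0.06, -0.18 and -0.34 in the unstimulated cells. Its change of 0.33 ± 0.10 passed (limma adjusted p 0.0228), but did not pass without IL-18 replicate 2 (0.10) or without unstimulated replicate 3 (0.0881), within a range of 0.0139 to 0.10 over 13 alternatives. Dtymk, thymidylate kinase, had 0.14, 0.32 and 0.58 in IL-18 generated cells against -0.53, -0.19 and -0.14 in unstimulated cells, a change of 0.63 ± 0.13 (limma adjusted p 0.00317). Cmpk1, the UMP/CMP kinase, overlapped between groups, with a change of -0.08 ± 0.07 (limma adjusted p 0.431).

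Where a step is served by more than 1 gene, the within-array difference of the pair was compared between groups for 7 pairs. With 3 arrays against 3, the exact two-sided permutation test cannot go below 0.10, so no pair could pass. Ctps minus Ctps2 was 0.92, 1.1 and 1.02 in the IL-18 generated cells and -0.89, -1.05 and -1.26 in the unstimulated cells, a difference of changes of 2.08 ± 0.12 (exact permutation p 0.10, 0.14 adjusted over 7 pairs). Adss minus Adssl1 differed by 1.75 ± 0.13 and Prps1 minus Prps2 by 0.92 ± 0.15, with the same exact permutation p. In these 3 pairs the arrays of the groups did not overlap. Nme1 minus Nme2 differed by 0.34 ± 0.09 and Dck minus Dguok by 0.24 ± 0.07, also without overlap and at that same exact permutation p. The Nme difference rests on the probe set named for Nme2 alone, and probes may read both genes. A probe set named for Nme2 and Dscaml1 changed by 1.54, near the 1.52 of Nme1. Rrm2 minus Rrm2b and Tk1 minus Tk2 overlapped between groups, with differences of -0.22 ± 0.24 and 0.33 ± 0.20 (exact permutation p 0.40 and 0.30). With 1 array left out, the first ran from -0.41 without IL-18 replicate 2 to -0.03 without IL-18 replicate 1, and the second from 0.18 without IL-18 replicate 2 to 0.47 without unstimulated replicate 1. The Impdh pair could not be compared.

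**Figure D4:**
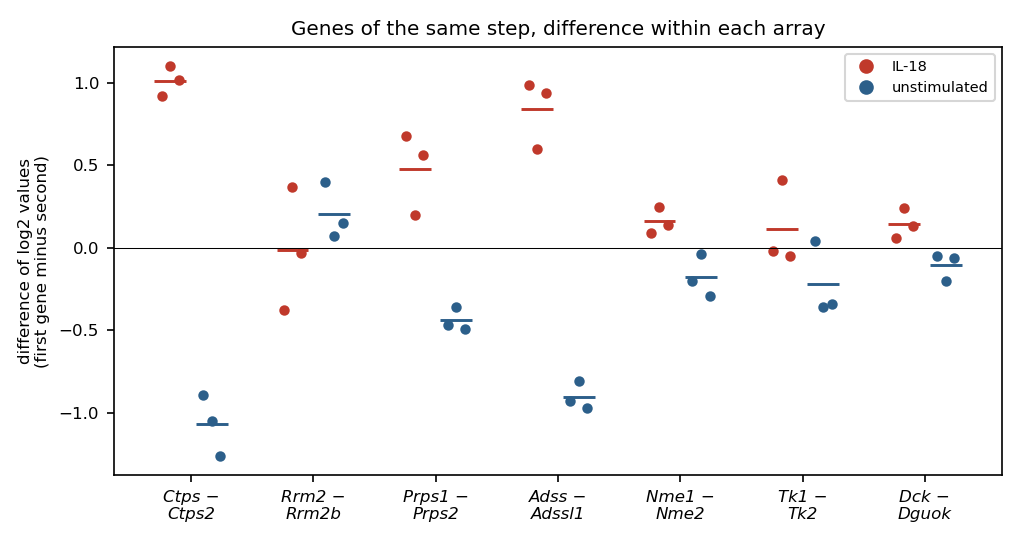
Difference of the log2 values of 2 genes of the same step within each array (y axis, first gene minus second) for 7 pairs (x axis). Points are single arrays, IL-18 generated in red and unstimulated in blue, and short lines are means of 3 arrays. The groups are widest apart for Ctps minus Ctps2, at means of 1.02 in IL-18 generated cells and -1.07 in unstimulated cells.

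Other genes of nucleotide metabolism moved in both directions. Of 49 listed, 43 were measured. By limma's test 20 were higher (46.5%), where 19.7% of all genes tested were. Another 10 were lower, where 16.7% of all genes were, and 13 did neither. The median change was 0.23. Upp1, uridine phosphorylase, which splits uridine into uracil and ribose phosphate, had 1.57, 1.55 and 1.35 in the IL-18 generated cells and -1.51, -1.82 and -1.35 in the unstimulated cells. Its change of 3.05 ± 0.12, or 8.26-fold (limma adjusted p 4.84e-08), exceeded that of every member. Dctd, dCMP deaminase, which provides dUMP for Tyms, changed by 2.22 ± 0.13 (limma adjusted p 5.52e-07), and Nme6, a further diphosphate kinase family gene, by 1.27 ± 0.08 (limma adjusted p 9.30e-07). Xdh, Samhd1 and Ampd3 had the largest decreases among the 10 called lower. Xdh, xanthine dehydrogenase, which forms uric acid in purine breakdown, had -1.41, -1.51 and -0.81 in IL-18 generated cells against 0.81, 1.02 and 0.90 in unstimulated cells, a change of -2.15 ± 0.16 (limma adjusted p 2.49e-06). Samhd1, which hydrolyses deoxynucleotide triphosphates, had -1.04, -1.15 and -0.69 in the IL-18 generated cells and 0.69, 0.89 and 1.06 in the unstimulated cells, a change of -1.84 ± 0.13 (limma adjusted p 1.85e-06). Ampd3, an AMP deaminase, changed by -1.65 ± 0.11 (limma adjusted p 1.1e-06).

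Markers of myeloid cells, which also express Samhd1, were lower in the same arrays. All 7 measured monocyte markers were lower, with list means of -1.47 to -1.27 in the IL-18 arrays and 1.20 to 1.77 in the unstimulated arrays. All 8 neutrophil markers were lower as well, with list means of -1.10 to -1.01 in the IL-18 arrays and 0.96 to 2.05 in the unstimulated arrays. The part of these cells in any member's change was not tested, and fewer cells of a type cannot be told apart from less RNA per cell. All 5 measured B cell markers and 4 of 5 mast cell markers were lower too, while 3 of 6 T cell markers, the CD3 chain genes, were higher. The 10 NK cell markers were all lower, by -0.40 to -2.21, and since the values are relative, they do not show whether a marker is absent. Beside these marker counts, 16.7% of all genes tested were lower and 19.7% higher.

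Genes that supply precursors of the de novo routes were higher as well. Of 14 measured genes of serine synthesis, folate one-carbon metabolism and the pentose phosphate pathway, 11 were higher, 0 were lower and 3 did neither, and the median was 0.89. Mthfd2, the mitochondrial folate enzyme, Psat1, of serine synthesis, and Shmt2, which moves the one-carbon unit from serine to folate, led them, with changes of 3.51 ± 0.10, 2.69 ± 0.08 and 2.54 ± 0.09. Cytosolic Mthfd1, which makes the formyl donor that the Gart and Atic proteins use, changed by 2.10 ± 0.08. Their limma adjusted p was at most 5.11e-08. Of 6 measured pentose phosphate genes, which serve the supply of ribose phosphate, 3 were higher and 0 lower by limma's test, and their median was 0.21. Tkt, transketolase, was higher by 0.46 ± 0.07 (limma adjusted p 0.000391), Pgls by 0.42 ± 0.10 and Rpia by 0.26 ± 0.09. Pgd at 0.17 ± 0.08, Rpe at 0.13 ± 0.09 and Taldo1 at -0.12 ± 0.08 did not pass. No test compared them with the serine and folate genes. Among the 31 replication genes, which use the deoxynucleotides, 26 were higher, 1 (Rfc2) was lower and 4 did neither, and the median was 0.52. Prim1 led them at 1.11 ± 0.09 (limma adjusted p 5.10e-06). Of 19 mitosis genes, 11 were lower and 8 did not pass, with Ccnb2 at -1.74. Of all genes tested, 19.7% were higher and 16.7% lower.

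**Figure D5:**
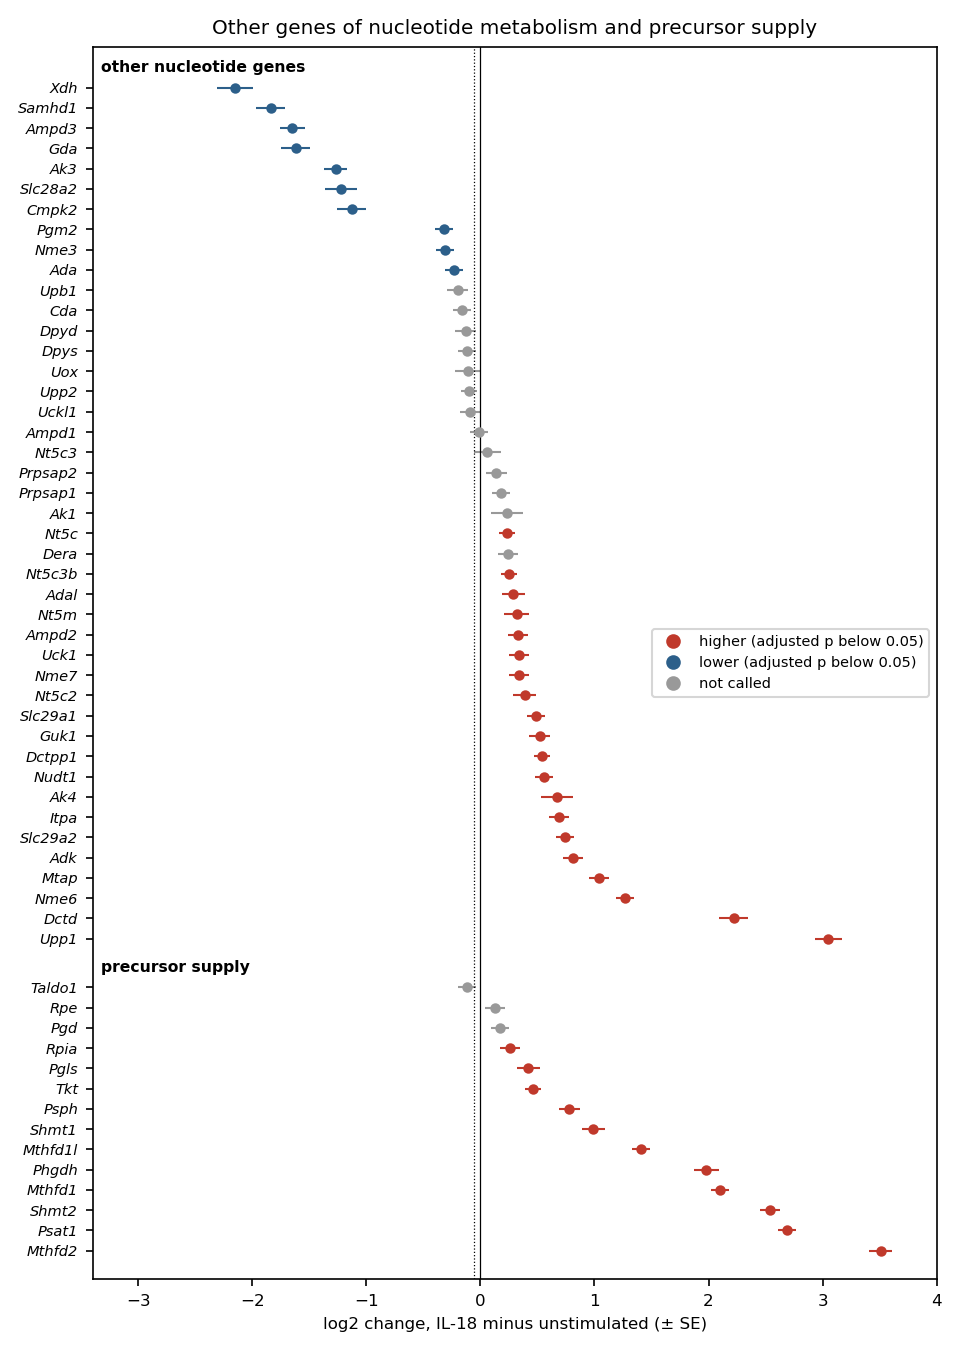
Log2 change, IL-18 generated minus unstimulated cells (x axis, points with limma standard errors, n = 3 arrays per group), of 43 other genes of nucleotide metabolism and 14 genes of precursor supply (y axis, ordered by change). Red genes were called higher, blue lower and grey not called, and the dotted line is the median of all genes tested. Upp1 and Mthfd2 lie farthest right at 3.05 and 3.51, and Xdh farthest left at -2.15.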

How the data were processed

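Total RNA was labelled with biotin by the Affymetrix WT Terminal Labeling Kit and hybridised in 1 colour, per the labels' protocols. The deposited table held the authors' values for 28815 probe sets on 6 arrays. Their log2 scale was read from the deposited values and is not stated. Values are centred so that the median of a probe set is 0 (largest departure 5e-07). The sources used here do not say how the authors summarized and normalized the arrays. Of the probe sets, 21788 had 1 symbol, 1597 had several and 5430 were not listed. The identifiers of 21689 were in the reference gene table (GRCm38.p6), and 0 symbols needed an update.

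Both groups were set against each other over 19943 genes in 1 fit of all 6 arrays without covariates (limma 3.58.1, lmFit then eBayes; R 4.3.3), with Benjamini-Hochberg adjustment over all genes. The procedure was tested on simulated data. Array medians lay between -0.025 and 0.039, so no scaling was added, and array number limits the precision. The members and lists were chosen with earlier results of these data known. Every measured member is named, with up to 3 genes per direction from each other list. Mthfd1 and the pentose phosphate genes were named after their values were seen. The changes of Adk, Uck1, Uckl1 and Mtap were also given after they were seen. Promoters came from RefSeq, and 33 members matched. Tables and figures used Python 3.11.15, pandas 2.3.3, numpy 2.4.6 and matplotlib 3.10.9. Alternatives covered variance models, scaling, weights, features, thresholds, the replicate block and each array left out. Same-numbered arrays deviated together with r of 0.24, 0.01 and -0.02, so the numbers were not taken as pairs.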

Additional observations from a re-analysis of the deposited data

Results flagged for a closer look

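A probe set outside the gene tests, named for both Nme2 and Dscaml1, carried a signal above the unstimulated arrays. It had 0.76, 0.82 and 0.66 in the IL-18 generated cells and -0.66, -0.81 and -0.93 in the unstimulated cells, a log2 change of 1.54 ± 0.09 (SE, n = 3 per group, limma adjusted p over all probe sets 3.95e-06). The probe set of Nme2 alone changed by 1.18 on that scale. Another probe set outside the gene tests, named for Pnp and Pnp2, changed by -0.14 ± 0.07 (limma adjusted p 0.16). With 3 arrays per group, outlying arrays were not tested.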

How the results depend on the processing

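The fold threshold moved the counts most. At an added log2 change of at least 1, 721 genes were higher and 647 lower, among them 10 members higher and 1 lower, with 7 higher de novo genes and 0 higher salvage genes. With treat, limma's test of changes beyond 0.5, there were 1093 genes higher and 864 lower, with 15 members higher and 1 lower. Of those 15, 8 were de novo genes and 2 salvage genes. The de novo median was 1.05 without Adss and Adssl1, 0.93 without Adsl as well (chosen after seeing the data), and the salvage median 0.22 with Adk, Uck1, Uckl1 and Mtap added. Leaving out each array gave 3384 to 4178 genes higher and 2651 to 4408 lower, 23 to 25 members higher and 2 to 4 lower, 12 to 13 higher de novo genes, 3 higher salvage genes each time, a de novo median of 0.74 to 0.89 and a salvage median of 0.04 to 0.13. Members lower ran from 2 without IL-18 replicate 2 or unstimulated replicate 3 to 4 without unstimulated replicate 1. Over the 13 alternatives without a fold threshold, 448 of 455 member results kept their side of the threshold, 4 no longer passed and 3 newly passed. The sign changed in 7 results of 5 genes that did not pass (Rrm2, Prps2, Dck, Tk1 and Pnp), each with 1 array left out, and in 0 results of the called members. With the replicate number as a block, 24 members were higher and 3 lower, 3949 genes were higher and 3330 lower, and no member's call changed. No alternative reversed a pair difference, though a test that cannot pass says nothing of its stability. The causes of these shifts were not tested beyond the stricter threshold itself.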
